A study of Mus musculus with 7 samples.

Results

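Glutathione S-transferases (GSTs) were examined in cells of mouse liver by single-cell RNA sequencing. The 10 genes Gsta2, Gsta3, Gsta4, Gstm1, Gstm2, Gstm3, Gstp1, Gstt1, Gstk1 and Gstz1 were taken by name from the 32285 genes that the 7 libraries list, and all 10 were found in every library. They cover the alpha, mu, pi, theta, kappa and zeta classes of the family. A further 19 genes of related GST enzymes were described only by counts and by those with sizeable levels.

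GSTs join the tripeptide glutathione to reactive compounds, which makes these soluble and lets the cell export them as conjugates. The liver is their main site, and alpha, mu and pi class enzymes are among the abundant soluble proteins of hepatocytes. Part of the family is laid out along the liver lobule, in which blood flows from the portal tract (periportal) to the central vein (pericentral), and in mice part of it differs between the sexes.

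The study describes liver tumors of ABC-Myc mice, which carry Alb-Cre, with Cre under the albumin promoter, and the CAG-MYC transgene of human MYC, and livers of healthy control mice. In its naming the healthy libraries are NEJ638, NEJ654 and NEJ677 and the tumor libraries are NEJ634, NEJ687, NEJ709 and NEJ723. The labels themselves call every library liver of a hepatoblastoma murine model and give no genotype, strain or age of a library, so 0 groups were taken from the labels. The tumor and healthy names were used only to set values side by side, with no test, no mean and no replicate. The albumin promoter drives Cre in albumin-expressing cells, so the transgene is switched on in the hepatocyte lineage. The human MYC transcript itself was not analysed here. Tumor tissue was dissociated with collagenase, each library is 1 capture, and the description field of NEJ709 names NEJ634. Xist UMIs marked NEJ634, NEJ638 and NEJ654 as female, and Y-linked UMIs marked NEJ677, NEJ687, NEJ709 and NEJ723 as male, so both sexes stood on either side.

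The libraries held 40214395 to 132485391 unique molecular identifiers (UMIs), the tags that count single transcripts. After calling cells, quality limits and doublet removal, 6716 to 16963 cells per library were analysed, with median depths of 1962.5 to 4563 UMIs. Cells were clustered without any GST or glutathione gene and named from markers. Hepatocyte-lineage-like cells numbered 6061 in NEJ634, 245 in NEJ687, 311 in NEJ638, 556 in NEJ654 and 911 in NEJ677. NEJ709 and NEJ723 had 10 each, under the minimum of 20 cells for a level, so they were left out of the order between libraries and their values are given apart. The NEJ634 count moved with the settings, to 2303 at a finer clustering, 3075 when that library was clustered on its own and 3936 without doublet removal, while under the same settings the healthy counts were 310 to 354, 552 to 578 and 901 to 969. With only barcodes above the calling threshold, the NEJ634 count was 890. The counts were then 147 in NEJ687, 271 in NEJ638, 227 in NEJ654 and 416 in NEJ677. Levels are UMIs summed over the cells of a library per 1000000 UMIs (CPM), and parentheses hold exact 95% Poisson intervals (Clopper-Pearson for shares), which cover counting error only. The kit reads transcript 3′ ends, so CPM was compared between genes without a length correction. In NEJ709 most cells fell into 1 unnamed cluster of 13063 cells, 98.6% of them from that library, which mixed neutrophil and haemoglobin transcripts. It enters only the values over all cells. Some barcodes recurred between libraries. Of the hepatocyte-lineage-like cells, 91 of the 6061 in NEJ634 and 3 to 24 in each other library with a level were also called elsewhere. So were 3 of the 10 in NEJ709 and 1 of the 10 in NEJ723. NEJ654 and NEJ677 shared 186 barcodes, NEJ654 and NEJ687 105 and NEJ677 and NEJ687 95, while the other pairs shared 11 to 92.

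The genes are spread over the genome. By GENCODE M21 (GRCm38), Gsta2 (chr9:78331018-78355788, minus strand) and Gsta4 (chr9:78182774-78209349, plus strand) lie on chromosome 9 and Gsta3 (chr1:21240589-21265661, plus) on chromosome 1. Gstm3 (chr3:107963696-107969283), Gstm2 (chr3:107981702-107986453) and Gstm1 (chr3:108012255-108017973) are neighbours on the minus strand of chromosome 3. The other members are Gstp1 (chr19:4035407-4037985, minus), Gstt1 (chr10:75783813-75798584, minus), Gstk1 (chr6:42245935-42250447, plus) and Gstz1 (chr12:87147165-87164723, plus). Of 60-base windows in the last 400 bases of the longest coding transcript, 90.9% for Gstp1 were also present in another gene, mainly Gstp2, and 37.8% for Gsta2, while the other 8 members shared 0. Whether reads of these 2 genes were split among the copies or left out was not tested. Their levels and pool shares are thus less certain than those of the other members.

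Both members with the highest levels, Gsta3 and Gstm1, lay below in the tumor libraries (described next), so the 250 bases before their RefSeq start sites are shown (GRCm38.p6). Promoters of 9 members were searched on both strands for the antioxidant response element core TGACNNNGC, to which the regulator Nrf2 (gene Nfe2l2) is known to bind, for the palindromic HNF1 motif by its consensus and for the TATA box TATAAA. These occurred in 10.2%, 0.00913% and 12.4% of 32851 promoters of this length, and in 1, 0 and 2 of the 9. The capitals mark the antioxidant response element core in Gsta3 (chr1:21240335-21240584, plus strand), 121 bases before the start, and the TATA box in Gstm1 (chr3:108017819-108018068, minus strand), 30 bases before it.
Gsta3: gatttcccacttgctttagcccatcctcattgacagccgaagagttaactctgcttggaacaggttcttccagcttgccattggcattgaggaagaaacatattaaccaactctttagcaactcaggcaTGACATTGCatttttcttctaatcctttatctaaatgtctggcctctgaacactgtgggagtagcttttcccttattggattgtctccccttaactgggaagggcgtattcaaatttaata
Gstm1: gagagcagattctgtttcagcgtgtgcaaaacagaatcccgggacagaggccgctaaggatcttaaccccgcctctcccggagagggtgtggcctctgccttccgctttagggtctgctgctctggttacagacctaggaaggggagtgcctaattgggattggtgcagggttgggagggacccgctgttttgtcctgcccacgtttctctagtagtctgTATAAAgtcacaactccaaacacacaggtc
RefSeq also gives Gstm1 a start site further upstream, whose 250 bases (chr3:108017974-108018223) held 0 of the motifs and are not printed. A match is a string of letters and not a measured site.

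In hepatocyte-lineage-like cells, 7 of the 10 genes were lower in both libraries named tumor than in all 3 named healthy. The summed level of the 10 was 950.1 (938 to 963) CPM in NEJ634 and 1107 (1075 to 1140.1) in NEJ687, against 4814 (4729 to 4900.2) in NEJ638, 4507 (4404 to 4612) in NEJ654 and 6656 (6565 to 6748) in NEJ677. The lowest healthy library was 4.07 times the highest tumor library, and the intervals did not meet. With the mean of per-cell CPM in place of summed UMIs the ratio was 2.24, NEJ687 stood at 1852 and Gstm3 was no longer below. The 7 genes were Gsta3, Gstm1, Gstm2, Gstm3, Gstt1, Gstk1 and Gstz1, while Gsta2, Gsta4 and Gstp1 overlapped and 0 of 10 were higher in both tumors. Among the 9094 genes with at least 10 CPM in 1 or more of these libraries, 20.4% lay below in the same sense and 34.1% above. All 10 members passed that minimum. The median difference between the libraries named tumor and healthy was -2.35 (log2 of CPM + 1) over the members and 0.245 over all genes tested.

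**Figure D1:**
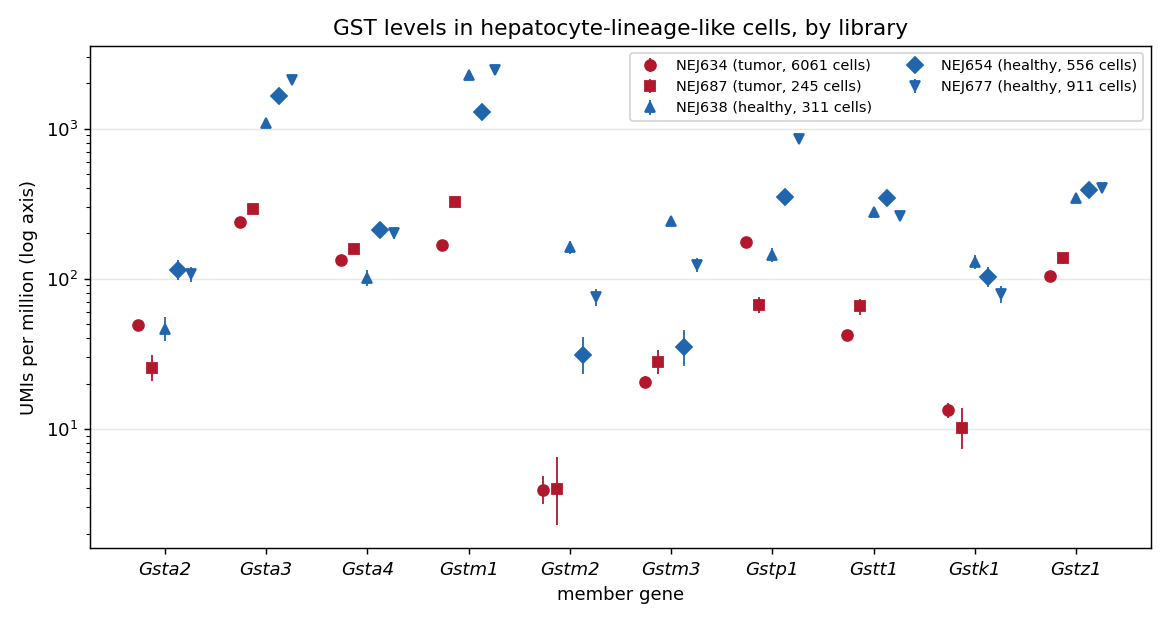
Level of each member (CPM, log axis) in hepatocyte-lineage-like cells of the 5 libraries with at least 20 such cells; points are libraries and bars are exact 95% Poisson intervals. Red tumor libraries lie below all blue healthy libraries for 7 of the 10 genes, and NEJ687 alone does so for Gsta2 and Gstp1. For Gsta4 both tumor libraries lie within the healthy range.

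Cells named hepatocyte-lineage-like differed in state between the libraries. The 12 hepatocyte-lineage markers that named them summed to 23925 CPM in NEJ634 and 30335 in NEJ687, against 64671 to 122918 in the healthy libraries. Alb, which encodes albumin, stood at 3293 to 3946 CPM against 23265 to 55418, and Cyp2e1, a pericentral cytochrome, at 12.9 to 27.8 CPM against 357 to 1889.8 in the same order of tumor and healthy. The fetal liver genes Afp and Igf2 ran the other way, at 1588 to 2136 CPM against 2.49 to 9.05 for Afp and 2391 to 2561 CPM against 0.787 to 1.86 for Igf2. Of a list of 10 lineage state genes, 3 lay below, 4 above and 3 overlapped, beside 20.4% of all genes below and 34.1% above. Gpc3 overlapped at 2.56 to 2.73 CPM against 0 to 19.3, Cps1 at 728.6 to 778.6 against 761.3 to 3236.5 and Glul at 166.6 to 217.5 against 70.8 to 310.8. In NEJ634 neutrophil markers summed to 6605 CPM in these cells, against 29.2 to 418 in the other 4 libraries, and 36.8% of UMIs in its T/NK- and B-like cells were estimated as free RNA, against 6.02% to 13.1% in the others with a level. With the free RNA profile subtracted, the same 7 genes lay below, beside 23.0% of all genes, at a summed ratio of 3.87. Free RNA profiles were summed over barcodes ranked 45000 to 90000 by UMIs. In NEJ634, 67059 barcodes held over 500 UMIs at a low mitochondrial share, so its profile may include cells. Of the NEJ634 hepatocyte-lineage-like cells, 4475 lay in a cluster at 723 CPM summed and 1545 in a cluster at 1123. The first cluster had a mean log2 fold of 2.66 for hepatocyte-lineage markers and 1.88 for neutrophil markers, near the least lead accepted for a name (0.75).

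Alpha class. Gsta3, a major alpha enzyme of mouse liver, was far apart between the libraries. It stood at 239.7 (234 to 246) CPM in NEJ634 and 291 (274 to 308) in NEJ687, against 1096 (1056 to 1138) in NEJ638, 1646 (1584 to 1710) in NEJ654 and 2105 (2054 to 2157) in NEJ677. The lowest healthy library was 3.77 times the highest tumor library. Gsta2, another hepatic alpha enzyme that is inducible through antioxidant response elements, stood at 49.4 (46.6 to 52.4) CPM in NEJ634 and 25.5 (20.9 to 30.97) in NEJ687, against 46.5 (38.5 to 55.6) in NEJ638, 114 (98.4 to 132) in NEJ654 and 107 (95.5 to 119) in NEJ677. The libraries overlapped, since NEJ638 lay at the level of NEJ634. Gsta4, which handles 4-hydroxynonenal, an aldehyde from oxidized lipids, stood at 134 (129 to 138) CPM in NEJ634 and 158 (146 to 170.4) in NEJ687, against 102 (89.5 to 115) in NEJ638, 211 (189 to 234) in NEJ654 and 199.8 (184 to 216) in NEJ677. Both tumor libraries lay above NEJ638 and below the other healthy libraries, so Gsta4 did not separate them. This depended on the cells and libraries used: Gsta4 lay above in both tumors without the Alb-poor cluster described below, and below in both without NEJ638.

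Mu class. Gstm1, the most abundant mu enzyme here, stood at 168 (163 to 174) CPM in NEJ634 and 322 (305 to 340.3) in NEJ687, against 2269.7 (2212 to 2329) in NEJ638, 1281 (1226 to 1337) in NEJ654 and 2445 (2389.9 to 2501) in NEJ677. Its lowest healthy library was 3.97 times the highest tumor library. Gstm2 was near the floor in the tumors. It stood at 3.91 (3.15 to 4.81) CPM in NEJ634 and 3.97 (2.27 to 6.44) in NEJ687, against 162 (146 to 178) in NEJ638, 31.1 (23.1 to 40.96) in NEJ654 and 74.9 (65.5 to 85.2) in NEJ677, a gap of 7.83 times, and the tumor levels were no higher than in the free RNA of the same libraries (5.54 and 4.06 CPM). In NEJ654 the level also lay near that of free RNA (36.8 CPM). Gstm3 stood at 20.4 (18.6 to 22.3) CPM in NEJ634 and 28.02 (23.1 to 33.7) in NEJ687, against 243 (224 to 263) in NEJ638, 34.8 (26.3 to 45.2) in NEJ654 and 123 (111 to 136) in NEJ677. The gap of 1.24 times was small, the intervals of NEJ687 and NEJ654 overlapped, and the healthy libraries themselves spread from 34.8 to 243 CPM.

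Pi class. Gstp1, a conjugating enzyme known in mouse liver for higher levels in males, stood at 176 (170.4 to 181) CPM in NEJ634 and 66.7 (58.97 to 75.2) in NEJ687, against 144 (129 to 159) in NEJ638, 352 (323 to 382) in NEJ654 and 857 (825 to 891) in NEJ677. NEJ634 lay above NEJ638, so the libraries overlapped. Among the healthy libraries the male NEJ677 was highest, but NEJ687, also male, was the lowest of all 5. The high value of NEJ677 did not hold within each kind of hepatocyte-like cell: in the albumin-rich cluster described below Gstp1 stood at 169.6 CPM in NEJ677, 232 in NEJ654 and 135 in NEJ638, and in the albumin-poor cluster at 1126 in NEJ677 and 623 in NEJ654.

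Theta, kappa and zeta classes. Gstt1, which acts on small halogenated compounds, stood at 41.9 (39.3 to 44.7) CPM in NEJ634 and 65.2 (57.6 to 73.6) in NEJ687, against 278 (258 to 299) in NEJ638, 345 (317 to 375) in NEJ654 and 261 (244 to 280.1) in NEJ677. The healthy libraries lay close together and the lowest was 4.01 times the highest tumor library. Gstk1, a mitochondrial and peroxisomal enzyme, stood at 13.3 (11.8 to 14.9) CPM in NEJ634 and 10.2 (7.29 to 13.8) in NEJ687, against 129.9 (116 to 145) in NEJ638, 102 (87.5 to 119) in NEJ654 and 78.4 (68.8 to 88.99) in NEJ677, a gap of 5.899 times. In free RNA of the tumor libraries it stood at 7.45 and 8.99 CPM. Gstz1, an enzyme of tyrosine breakdown, stood at 104 (99.8 to 108) CPM in NEJ634 and 137 (126 to 148) in NEJ687, against 344 (322 to 368) in NEJ638, 390.2 (360.3 to 422) in NEJ654 and 404 (382 to 427) in NEJ677, a gap of 2.52 times. The 3 healthy libraries differed little in Gstz1.

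The 10 hepatocyte-lineage-like cells in each of NEJ709 and NEJ723 held 442750 and 163230 UMIs in all. UMIs of the 10 members numbered 533 in NEJ709 and 339 in NEJ723. Gstm1 gave 81 in NEJ709 and 183 in NEJ723, and Gsta3 gave 96 in NEJ709 and 41 in NEJ723. Gstm2 gave 5 in NEJ709 and 1 in NEJ723. As CPM the sums stood at 1204 (1104 to 1310.5) and 2077 (1862 to 2310.1), from 10 cells each. Both sums exceeded those of NEJ634 and NEJ687 and lay below the healthy libraries, though the intervals of NEJ709 and NEJ687 overlapped. Of the 10 cells each, 3 in NEJ709 and 1 in NEJ723 had a barcode also called in another library. Of the 4 tumors, most of the hepatocyte-lineage-like cells came from NEJ634. When every cell with at least 1% of its UMIs from lineage markers other than Afp was taken instead, without clusters, NEJ709 (54 cells) and NEJ723 (723 cells) entered. The summed level was then 906 CPM and 528 in those, 933 and 1056 in NEJ634 and NEJ687, and 2563 to 5438 in the healthy libraries, and 6 members lay below, beside 14.3% of all genes, with Gstm3 no longer among them. The rule also took 2075 cells of NEJ654 and 1327 of NEJ677, more than the clusters did. Free RNA held 8575 CPM of the lineage markers, Afp included, in NEJ723 and 30303 in NEJ654. Cells of other types can thus pass the rule, and these levels are not those of hepatocyte-lineage cells alone.

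The makeup of the pool differed as well. Gsta4 made up 14.1% (13.6 to 14.5) of the UMIs of the 10 members in NEJ634 and 14.2% (13.2 to 15.3) in NEJ687, against 2.11% (1.86 to 2.38) in NEJ638, 4.67% in NEJ654 and 3.002% (2.77 to 3.25) in NEJ677. Its share was thus higher in both tumor libraries while its level overlapped, with the exceptions given above. Gstz1 took 10.9% (10.5 to 11.4) and 12.3% (11.4 to 13.3) in the tumors, against 6.07% (5.75 to 6.404) to 8.66% (8.02 to 9.33) in the healthy libraries. Gstm1 took the largest share in NEJ687, NEJ638 and NEJ677, at 29.1% (27.8 to 30.5), 47.1% (46.3 to 48.04) and 36.7% (36.1 to 37.4). Gsta3 led in NEJ634, at 25.2% (24.7 to 25.8), and in NEJ654, at 36.5% (35.4 to 37.6). Gstp1 was the second largest share in NEJ634, at 18.5% (17.99 to 19.03), and took 2.98% (2.69 to 3.302) to 12.9% (12.4 to 13.3) in the other libraries.

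**Figure D2:**
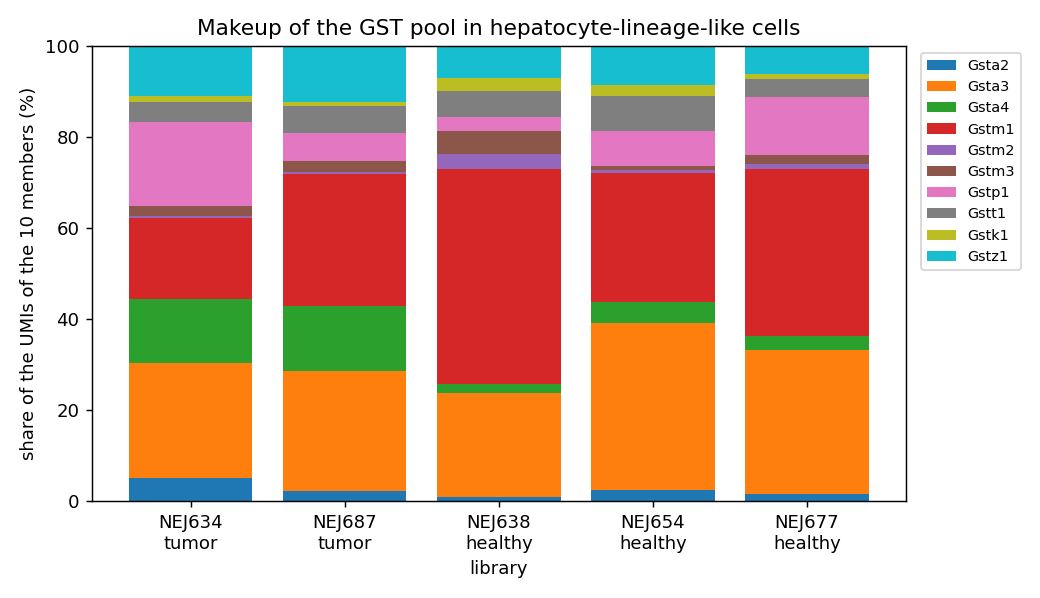
Share of each member in the UMIs of the 10 members (percent) in hepatocyte-lineage-like cells of 5 libraries, as stacked bars. The green Gsta4 segment is about 14% in both tumor libraries and 2.11% to 4.67% in the healthy libraries.

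At equal depth the share of cells with a GST UMI was also lower in both tumors. Cells were thinned to 500 UMIs each, which left out 0 cells. A UMI of any of the 10 members was then found in 32.2% (31.01 to 33.4) of hepatocyte-lineage-like cells in NEJ634 and 44.1% (37.8 to 50.5) in NEJ687, against 89.4% (85.4 to 92.6) in NEJ638, 76.98% (73.2 to 80.4) in NEJ654 and 90.01% (87.9 to 91.9) in NEJ677. Unthinned, these were 81.1%, 88.98%, 99.4%, 92.1% and 97.7%, and the cells had a median of 2520, 12616, 8774, 1235.5 and 1736 UMIs. T/NK-like cells, in which alpha and mu liver enzymes are not expected, showed 12.4% (9.94 to 15.2) in NEJ634, 2.34% (1.015 to 4.56) in NEJ687, 6.35% (4.55 to 8.58) in NEJ638, 10.1% (8.103 to 12.3) in NEJ677 and 22.4% (19.9 to 25.02) in NEJ654 after thinning, at median depths of 2102, 3817, 1637.5, 2955 and 1666 UMIs. The shares were 3.39% (0.413 to 11.7) in NEJ709 and 5.08% (3.31 to 7.41) in NEJ723. T/NK-like cells were not free of Gstp1: it stood at 46.95 (29.1 to 71.8) CPM in NEJ709 and 53.96 (45.3 to 63.8) in NEJ723, above 19.3 and 23.4 CPM in free RNA. The hepatocyte-lineage-like shares lay above these in each of the 5 libraries with a level. For Gstm1 alone the shares were 7.16% (6.52 to 7.84) and 22.04% (17.01 to 27.8) in the tumors and 41.01% (36.9 to 45.2) to 65.3% (59.7 to 70.6) in the healthy libraries. The NEJ687 shares include 36 shallow cells, with a median of 589.5 UMIs, in which Gstm1 stood at 3268 CPM against 294 to 316 in its 2 larger clusters. Thinned to 1000 UMIs, which left out 53 cells of NEJ687, the Gstm1 share was 23.4% there and 13.1% in NEJ634, and the share with any member 55.2% and 53.5%. The same limit left out 26 cells of NEJ638, 236 of NEJ654 and 274 of NEJ677, where the share with any member was 96.8%, 88.8% and 97.0%.

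Cells of the tumor libraries with epithelial markers had lower summed levels as a class. Biliary/progenitor epithelium-like cells, led by Epcam, Cldn6, Cldn7 or Spp1, numbered 203 in NEJ634 and 213 in NEJ723 and under 20 in each other library. The summed level was 576 (526 to 629) CPM in NEJ634 and 367 (356 to 378) in NEJ723, so the NEJ634 cells lay below the hepatocyte-lineage-like cells of the same library. The class mixed clusters. A cluster of 181 cells, 81.8% from NEJ634 and led by Spp1 and Clu, stood at 755 CPM summed and 216 CPM of Afp. The largest hepatocyte-lineage-like cluster stood at 730 CPM summed. A cluster of 246 cells, 86.6% from NEJ723 and led by Cldn7 and Cldn6, stood at 386 and 2365 CPM. Whether the epithelium-like cells were tumor cells was not tested. In NEJ723, where these cells had a median depth of 53890 UMIs, Gstm1 stood at 99.03 (93.6 to 105) CPM, Gstt1 at 93.3 (88.1 to 98.8) and Gstp1 at 78.1 (73.4 to 83.2). Gsta3 followed at 39.03 (35.7 to 42.6), beside 29.98 CPM in free RNA. Gsta2, Gstm2, Gstm3 and Gstk1 were at 1.02 to 2.83 CPM. Gsta2, Gstm3 and Gstk1 also stood at most at 8.12 CPM in NEJ634, where Gsta3 reached 151 (126 to 179).

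Outside the hepatocyte lineage, levels of the members differed by class. In endothelial-like cells Gstm1 had the highest median over 6 libraries, at 78.45 CPM, beside 58.5 for Gstm2, 49.9 for Gstk1 and 41.4 for Gstp1. Gstm2 and Gstk1 were found in endothelial-like cells, at 28.99 to 85.1 and 18.6 to 77.8 CPM over 6 libraries, against 0 to 6.69 and 0 to 7.16 in T/NK-like cells. In the tumors these endothelial-like levels exceeded those of hepatocyte-lineage-like cells: Gstm2 stood at 28.99 (23.8 to 34.97) CPM in NEJ634 and 52.6 (37.2 to 72.2) in NEJ687. Gstk1 was likewise at 24.7 (19.96 to 30.3) and 51.2 (36.1 to 70.6) there. In the healthy libraries Gstm2 was 72.6 (65.8 to 79.9) in NEJ638, 85.1 (77.2 to 93.5) in NEJ654 and 64.3 (58.5 to 70.7) in NEJ677, while the 3 tumors with a level stood at 29.0 to 52.6, the intervals of NEJ687 and NEJ723 overlapping those of NEJ638 and NEJ677. For Gstm2, endothelial-like cells thus lay above hepatocyte-lineage-like cells in NEJ654, below them in NEJ638, and within overlapping intervals in NEJ677. For Gstk1 they lay below in NEJ638 and NEJ654. Both genes stood above free RNA beyond the interval in all 6 endothelial-like sets.

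Mesenchymal-like cells, which include stellate cells and fibroblasts, had UMIs of Gstm1, Gstm2, Gsta4 and Gstt1. Over 5 libraries Gstm1 ranged from 98.2 to 229 CPM, Gstm2 from 26.7 to 150.1 and Gstt1 from 46.5 to 106. Gstt1 in these cells lay above its 1.38 to 7.93 CPM in endothelial-like cells in every library with both. Gsta4 ranged from 0 to 77.5, with 0 in the 40 cells of NEJ723. Set against undiluted free RNA of the same library, Gstm2 lay above it beyond the interval in 5 of 5 libraries, Gstt1 in NEJ634 and NEJ677, Gsta4 in NEJ638 and NEJ677, and Gstm1 in 0 of 5. Free RNA was estimated at 8.38% to 36.8% of UMIs in T/NK- and B-like cells of these libraries. A level below undiluted free RNA thus does not show that a gene is absent. Gstm1 stood at 8.94 to 89.3 CPM in T/NK-like cells of 7 libraries. The part of free RNA in the mesenchymal-like Gstm1 values was not tested. Gstm1 was the main member in granulocyte precursor-like cells, the immature neutrophils of the tumors. It stood there at 202 (188 to 216) CPM in NEJ634, 132 (121 to 143) in NEJ687, 145 (125 to 167) in NEJ709 and 155 (143 to 167) in NEJ723. In mature neutrophil-like cells of the same libraries it was 28.4 (15.9 to 46.9), 16.5 (12.3 to 21.7), 32.6 (21.1 to 48.1) and 24.4 (18.8 to 30.98). The precursors thus lay above the mature cells, and above free RNA, in 4 of 4 libraries, with intervals apart. In the healthy libraries, where precursors were under 20 cells, mature neutrophil-like cells stood at 59.1 to 186. Free RNA held more Gstm1 there, at 268 CPM in NEJ638, 647 in NEJ654 and 964 in NEJ677, and its part in these values was not tested. Gsta3, Gsta4 and Gstp1 passed 50 CPM in precursors of NEJ634 alone, where 453 of the 1109 precursor cells came from a cluster that H19 and Afp also led.

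In megakaryocyte-like cells Gstt1 UMIs gave 14.9 (3.08 to 43.6) CPM in NEJ634, 92.4 (42.3 to 176) in NEJ687 and 38.4 (19.8 to 67.1) in NEJ723. Undiluted free RNA held 14.5, 23.5 and 23.7 CPM, and NEJ687 alone stood above it beyond the interval. This does not show that Gstt1 was absent from the megakaryocyte-like cells of NEJ634 and NEJ723. Erythroid-like cells had the lowest median summed level among classes seen in all 7 libraries, at 61.5 CPM, though haemoglobin took 64.9% to 85.0% of the UMIs in the 3 largest erythroid-like clusters and so lowers the CPM of every other gene there. Gsta2 and Gstm3 were near 0 in most blood cell classes, with medians of at most 4.97 CPM for Gsta2 and 2.33 for Gstm3. The summed level in T/NK-like cells, 46.6 to 333 CPM over 7 libraries, was highest in NEJ654. Gstp1 in endothelial-like, macrophage-like and monocyte-like cells varied with it: NEJ654 was highest in all 3 classes and in T/NK-like cells. Exocrine pancreas-like cells, with a summed level of 244 to 601 CPM in 4 tumor libraries, had a median depth of 985.5 UMIs in their cluster and were led by digestive enzymes.

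**Figure D3:**
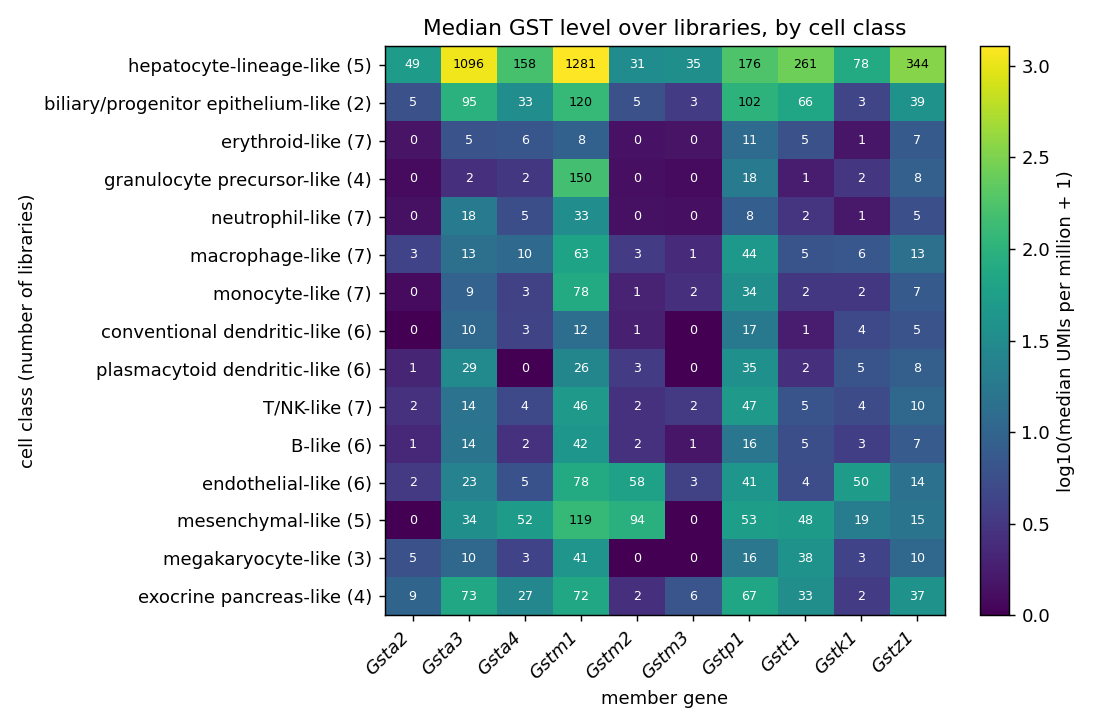
Median CPM over libraries of each member (columns) in each cell class with a level in at least 2 libraries (rows, with the number of libraries), coloured on a log10 scale and printed rounded. The top row holds the highest value for 9 of the 10 members, and Gstm2 is higher in the endothelial-like and mesenchymal-like rows.

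Over all analysed cells the same genes separated less. The summed level was 579 (572 to 585) CPM in NEJ634, 152 (149 to 156) in NEJ687, 144 (140.2 to 147) in NEJ709 and 130.5 (128 to 133) in NEJ723, against 840 (827 to 854), 709 (697 to 721) and 1008 (996 to 1019.8) in NEJ638, NEJ654 and NEJ677. NEJ634, which held most of the hepatocyte-lineage-like cells of the tumors, lay near the healthy range, and the other tumors lay far below it. Gsta3, Gstm1, Gstm2, Gstt1 and Gstk1 were below in all 4 tumors, 5 of 10 members, beside 37.2% of the 10157 genes tested, and 0 of 10 above, beside 9.28%. With 10 members, 5 below is a share near that background. Without NEJ634, 8 members lay below, beside 53.7% of genes, and the summed ratio rose from 1.23 to 4.66. The sums overlapped with the mean of per-cell CPM (ratio 0.793), where NEJ634 passed NEJ638, and with cells called by the threshold alone (0.863), where it passed NEJ654. The other 3 tumors stayed below every healthy library in both. In such totals, fewer cells of a type and less RNA per cell cannot be told apart.

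Healthy hepatocyte-lineage-like cells fell into 2 large clusters that differed in GST level. A first was rich in Alb and led by Serpina3k, Mup3 and Cyp2f2, and the other was poor in Alb and led by Akr1c6, Mup3 and Aox3. In NEJ654 the summed level was 7571 CPM (7330.2 to 7817) in 259 Alb-poor cells and 3149 (3046 to 3255) in 296 Alb-rich cells. In NEJ677 it was 7923 (7806 to 8041) in 788 and 3411 (3288 to 3536) in 122. NEJ638 had 291 Alb-rich cells, at 4745 (4660.1 to 4832), and under 20 of the others. The largest gap in CPM between the clusters was that of Gsta3, at 3230.2 against 945 CPM in NEJ654 and 2628 against 764 in NEJ677.

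The Alb-poor cells stood apart in other measures too. Alb was 4632 CPM in them against 78017 in NEJ654, and 3632 against 73687 in NEJ677. Fabp1, a fatty acid carrier, was higher in them, at 21216 against 6029 and 43626 against 9767 CPM. Their median mitochondrial share was 2.33% and 1.35%, against 6.71% and 7.995%, and their median depth was 873 and 1652 UMIs, against 1860 and 6082. The part of these differences in the GST levels was not tested. Without the Alb-poor cluster the healthy libraries stood at 3148 to 4740 CPM summed, the ratio to the higher tumor fell from 4.07 to 2.92, and 6 members lay below, beside 21.3% of all genes. Gstm3 then overlapped. Gsta4 turned to higher in both tumors, since its Alb-rich levels were 97.7, 111 and 58.1 CPM.

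**Figure D4:**
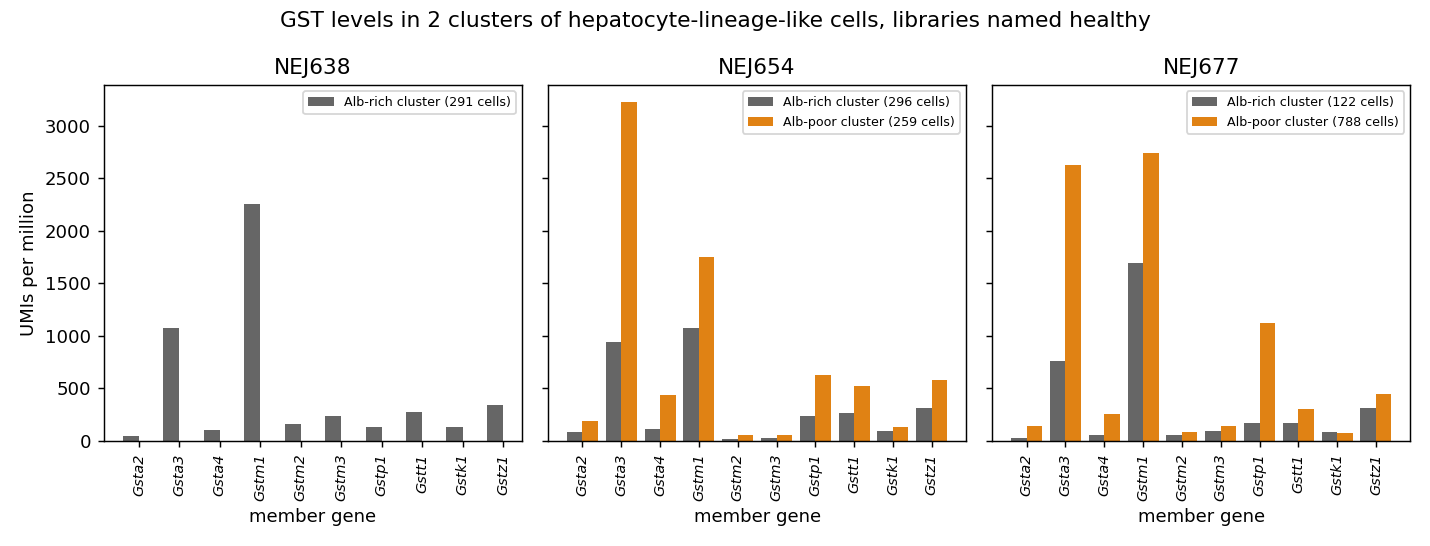
Level of each member (CPM, linear axis) in the Alb-rich (grey) and Alb-poor (orange) cluster of hepatocyte-lineage-like cells in the 3 healthy libraries. Orange bars exceed grey bars for all members in NEJ654 and for 9 of 10 in NEJ677, Gstk1 being the exception.

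Within each healthy library the members differed in their relation to lobule markers. Cells with at least 5 UMIs of the pericentral genes Cyp2e1, Cyp1a2, Oat, Slc1a2 and Glul or the periportal genes Cyp2f2, Hal, Hsd17b13, Pck1 and Sds were ranked by the pericentral share and divided at the middle. Each side held 140 cells in NEJ638, 119 in NEJ654 and 223 in NEJ677, and 31, 318 and 465 cells had too few UMIs. The pericentral share at the cut was 0.386, 0.0222 and 0.0333 of the UMIs of these genes, in the same order. The pericentral side thus took in cells with mostly periportal UMIs in NEJ654 and NEJ677, and the sides are not alike between libraries. In NEJ654 that side held Cyp2e1 at 726 CPM and Cyp2f2 at 730. Gstm2 was higher on the pericentral side in 3 of 3 libraries, at 246 against 54.4 CPM in NEJ638, 42.03 against 11.9 CPM in NEJ654 and 136 against 10.9 CPM in NEJ677. Gsta3 was higher by 2.15, 1.29 and 1.59 times and Gstm1 by 1.31, 1.21 and 2.21 times, with intervals apart in each library. Gstm3 was higher by 1.82, 1.77 and 5.99 times, with the intervals of NEJ654 overlapping. Gsta2 leaned to the periportal side, at ratios of 0.696, 0.569 and 0.676, and Gsta4 at 0.805, 0.782 and 0.727, with intervals apart in 2 and 1 of the 3 libraries. Gstp1 stood at 1.15, 1.001 and 0.6399, with intervals apart in NEJ677 alone, and Gstz1 at 0.972, 0.708 and 0.989, with intervals apart in NEJ654 alone. Gstt1 and Gstk1 had overlapping intervals in 3 of 3. The sort itself differed between libraries: Cyp2f2, which it used, had a pericentral over periportal ratio of 0.0359 in NEJ638 but 0.674 and 0.563 in NEJ654 and NEJ677, where Cyp2e1 was at 0 and 1.82 CPM on the periportal side. The split was chosen after the levels were seen.

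**Figure D5:**
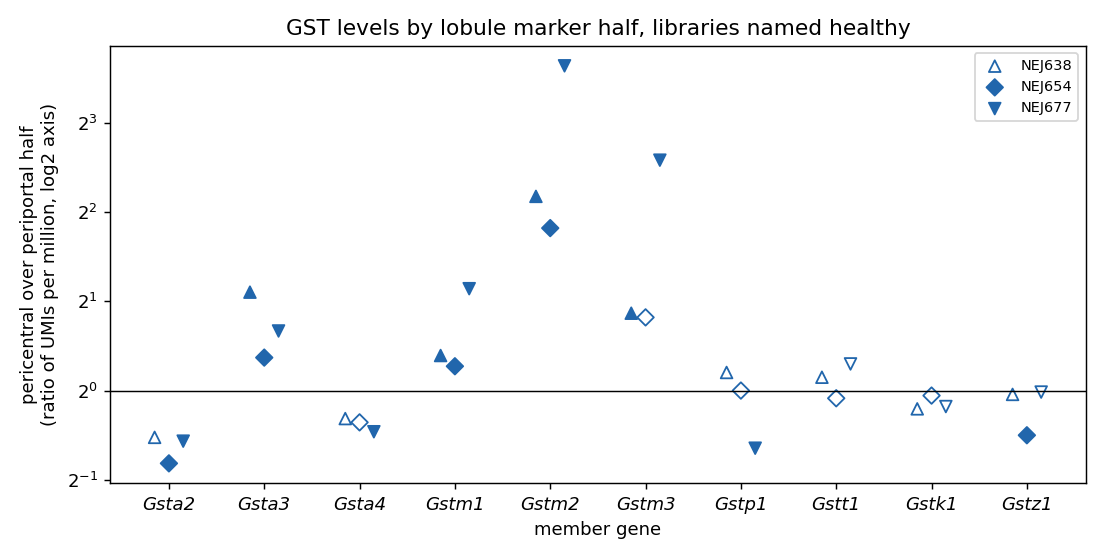
Ratio of the pericentral to the periportal side for each member (log2 axis, line at 1) in the 3 healthy libraries; filled symbols have intervals that do not overlap. Gsta3, Gstm1, Gstm2 and Gstm3 lie above 1 and Gsta2 and Gsta4 below 1 in all 3 libraries.

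Other GST genes split in the same cells. Of 19 in the files, 13 passed the minimum. Of these, 7 lay below in both tumors, 4 above and 2 overlapped, beside 20.4% of all genes below and 34.1% above. Mgst1, the abundant microsomal GST, stood at 388 to 417 CPM against 1444 to 2608, tumor against healthy. Gstm4 was at 3.22 to 3.35 CPM against 39.8 to 54.03, Gstm7 at 11.9 to 17.6 CPM against 52.1 to 69.6, Gstt2 at 24.99 to 41.4 CPM against 71.6 to 84.3 and Gstt3 at 18.3 to 31.7 CPM against 59.2 to 109. Gsto1, an omega enzyme that reduces rather than conjugates, was higher in the tumors, at 149 to 192 CPM against 93.7 to 111. Mgst3, a microsomal enzyme related to leukotriene synthesis, was higher as well, at 126 to 145 CPM against 30.3 to 76.8. Gstp3 overlapped, at 69.4 to 105 CPM against 49.8 to 106. Members of the family thus lay on both sides, though the count above is near the share over all genes.

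Glutathione itself is made by glutamate-cysteine ligase, with catalytic (Gclc) and modifier (Gclm) subunits, and glutathione synthetase (Gss). Of 4 genes for synthesis, 1 lay below, 1 above and 2 overlapped. Gclc was below at 44.4 to 71.05 CPM against 181 to 266, while Gclm overlapped at 243 to 276 CPM against 267 to 389 and Gss at 64.9 to 69.2 CPM against 52.4 to 91.97. Of 6 recycling and peroxidase genes, 2 lay below and 2 above. Gpx1, the main cytosolic glutathione peroxidase, was at 728 to 1198 CPM against 2423 to 4607 and Prdx6 at 315 to 399 CPM against 462 to 651, while Glrx, a glutaredoxin, was higher at 59.7 to 68.9 CPM against 32.3 to 47.5. Gsr and Gpx4 overlapped at 98.9 to 141 CPM against 81.4 to 134 and 513 to 694 CPM against 465 to 897. Of 5 breakdown genes that passed the minimum, 2 lay below and 2 above. Ggt1, the gamma-glutamyltransferase known as a fetal and tumor liver enzyme, stood at 72.7 and 125 CPM in the tumors and at 0 UMIs in all 3 healthy libraries, where 0 allows up to 0.976 to 1.86 CPM. Chac2 was below at 12.9 to 17.1 CPM against 31.7 to 62.5.

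Of 3 conjugate exporters past the minimum, Abcc2 and Abcc3 lay below, at 64.96 to 78.5 CPM against 104 to 292 and 2.73 to 11.1 CPM against 27.2 to 50.3, and Abcg2 overlapped at 38.9 to 48.7 CPM against 21.1 to 52.4. Of 8 regulators, 5 lay below and 1 above. Nfe2l2, which encodes Nrf2, was the gene above, at 76.6 to 134 CPM against 59.8 to 69.3, with the intervals of NEJ687 and NEJ677 overlapping. Free RNA of NEJ634 held 167 CPM of Nfe2l2, above either tumor value, and its part in the NEJ634 value was not tested. The nuclear receptor Nr1i3 (CAR) was below at 16.6 to 17.03 CPM against 41.7 to 55.3, Cebpa at 73.4 to 97.2 CPM against 173 to 272 and Hnf4a at 96.6 to 146 CPM against 149.8 to 181. Keap1, the inhibitor of Nrf2, at 32.98 to 34.2 CPM against 36.6 to 48.5, and the nuclear receptor Nr1i2 (PXR), at 26.03 to 26.1 CPM against 26.1 to 27.99, were below by little. The intervals of the highest tumor and lowest healthy library overlapped for Hnf4a, Keap1 and Nr1i2. Of 5 other targets of Nrf2, 3 lay below and 0 above: Ugdh was at 46.4 to 55.5 CPM against 73.95 to 144, while Txnrd1 and Hmox1 overlapped at 101 to 135 CPM against 74.4 to 119 and 105 to 242 CPM against 16.3 to 179. Each of these counts stands beside 20.4% of all genes below and 34.1% above.

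Across 83 combinations of library and cell class with at least 20 cells, the genes whose log2(CPM + 1) ran closest to that of the summed members were Ndrg2 (Pearson's r 0.876), the growth hormone receptor Ghr (0.868), Gamt (0.861), Acaa2 (0.848) and Otc (0.845), out of 9044 genes. Gamt makes creatine, Acaa2 oxidizes fatty acids and Otc belongs to the urea cycle. The combinations share libraries, free RNA and depth, so r is a description. Each member against the sum of the other 9 gave r from 0.611 for Gstk1 to 0.837 for Gsta3.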

How the data were processed

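Single cells of 7 mouse liver libraries were profiled with a droplet 3′ kit, as the labels and methods say, whereas the series design text speaks of nuclei. Which of them was loaded was not tested. The authors deposited raw UMI counts for every barcode, not normalized. The study's methods and the submitters' processing notes name Cell Ranger 6.0, with introns counted per the methods, whereas the matrix headers name another release, and the genome build is not given in the sources used here. GENCODE M21 (GRCm38) held 32158 of the 32285 gene identifiers.

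Barcodes were called as cells by a threshold at the 99th percentile rule and a test against the ambient profile (false discovery rate 0.01) of at most 20000 barcodes per library, a cap reached in NEJ634, NEJ709 and NEJ723, with at least 500 UMIs and at most 20% mitochondrial UMIs, which kept 81584. Simulated doublets removed 8889, leaving 72695 cells. Counts were normalized to 10000 per cell, and 2000 variable genes, without 65 GST, glutathione and related genes, gave 40 components, 15 neighbours and Leiden clusters at resolution 1. Of 54 clusters 43 were named from 151 markers of 18 classes. The naming limits, 3 or more markers at 2-fold with a mean log2 fold of at least 1 and a lead of 0.75, were set after the data were seen. Tools were Python 3.11.15, numpy 2.4.6, scipy 1.17.1, pandas 2.3.3, scikit-learn 1.9.0, igraph 0.11.9 and matplotlib 3.10.9.

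The labels give 0 groups, so no test, mean or SD across libraries was made, and the study's tumor and healthy names only order the values. A gene lay below or above where the libraries named tumor and healthy did not overlap. All 10 members were described, beside genes of preset lists on glutathione and the 5 genes most like the summed members by Pearson's r. The members and lists were chosen with earlier results of these data known. In data simulated for the hepatocyte-lineage-like libraries with 8000 genes, 200 of 200 genes made 4-fold lower were found below, as were 6.13% of 7800 unchanged genes. The simulated data took the profile of all kept cells and held counting error only, with no variation between animals. The 6.13% is thus no error rate for the real libraries, where 20.4% of all genes tested lay below. Columns and samples were taken from the file records, and no column of the authors' own comparisons was used.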

Additional observations from a re-analysis of the deposited data

Results flagged for a closer look

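GST UMIs also occurred in data outside the comparisons. Barcodes with at least 500 UMIs that were not called as cells held UMIs of the 10 members. In NEJ634, NEJ709 and NEJ723 only the 20000 barcodes highest in UMIs below the threshold were tested, so the others there were left out untested. Among the tumors the level was 373 CPM over 46818 barcodes of NEJ634, 133 over 10031 of NEJ709, 206 over 9568 of NEJ723 and 272 over 825 of NEJ687. Among the healthy libraries it was 1490.2 CPM over 420 barcodes of NEJ654 and 1115 over 240 of NEJ677. A count of 0 would allow at most 0.0648, 0.222, 0.525, 4.61, 11.5 and 19.6 CPM in the same order. The free RNA profiles held 410.1, 93.8, 189, 398, 1970.4 and 2144 CPM. The levels lay below free RNA in NEJ634, NEJ654, NEJ677 and NEJ687 and above it in NEJ709 and NEJ723. In NEJ634 the uncalled barcodes overlap those of the free RNA profile, so its comparison is partly a set against itself.

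The 10 hepatocyte-lineage-like cells of NEJ709 held 533 UMIs of the members and the 10 of NEJ723 held 339, both left out of the order between libraries.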

How the results depend on the processing

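In hepatocyte-lineage-like cells the summed level stayed lower in the tumors under every alternative run. The ratio of the lowest healthy to the highest tumor library was 2.43 with cells chosen by marker UMIs and 2.24 with the mean of per-cell CPM, each with 6 members below, beside 14.3% and 17.4% of all genes, against 4.07, and 3.87 to 4.40 under the other planned settings, with 7 members. With no minimum level, 12.9% of all genes lay below. Leaving out 1 library at a time gave 7 to 10 members below, 22.7% to 31.0% of genes and ratios of 4.07 to 4.74. Without NEJ638 all 10 members lay below, and without NEJ634 9. Over all cells, 3 members lay below with the threshold alone and 3 with the mean of per-cell CPM, beside 33.5% and 36.3% of all genes, which is no result about the members, at ratios of 0.863 and 0.793, where the sums overlap because NEJ634 passes 1 healthy library, the other 3 tumors staying below all. Leaving out 1 library gave 5 to 8 members, 37.8% to 53.7% of genes and ratios of 1.23 to 4.66, the highest without NEJ634. The causes were not tested. Alternatives added after seeing the data added epithelium-like cells (7 members, 17.0% of genes, ratio 3.97), left out the Alb-poor cluster (6 members, 21.3%, ratio 2.92) or left out the large NEJ709 cluster (5 members over all cells, 35.8%, ratio 1.23). Of the other values recomputed, 792 kept within their counting interval and 435 moved beyond it. No paired analysis was possible because the labels give no groups or replicate numbers. Counting error is small here, and the number of libraries and of tumor hepatocyte-lineage-like cells limits the comparison.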

Other observations

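Other GST genes had levels in blood cells where the 10 members were low. In erythroid-like cells Mgst3, a microsomal enzyme, ranged from 346 to 676 CPM in the 4 libraries named tumor and 5.81 to 99.7 in the 3 named healthy. Gstm5, a mu class enzyme, ranged there from 75.7 to 145 and 7.71 to 15.4. The erythroid-like class joined 7 clusters with 1.22% to 85.0% haemoglobin UMIs, each with NEJ687 or NEJ723 as its largest library, at 36.8% to 65.6% of its cells. The part of that makeup in these levels was not tested, nor was the share of all genes that differ so in this class. Mgst1 was found in neutrophil-like cells of the 7 libraries, at 249 to 532 CPM, and in monocyte-like cells at 179 to 383. Free RNA held 189 CPM of Mgst1 in NEJ634 and 111.5 in NEJ723, and its part in these levels was not tested. The Mgst1 level of free RNA in the other libraries is not given here. For the summed 10 members free RNA held 638 to 2144 CPM in the healthy libraries, against 410 in NEJ634 and 189 in NEJ723. Hpgds, the prostaglandin D synthase of the sigma class, ranged from 48.1 to 180.3 CPM in macrophage-like cells.

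In NEJ687, 36 cells joined the Alb-poor cluster of the healthy libraries. They had a median of 589.5 UMIs and 24175 UMIs in all. Their summed GST level was 6122 CPM (5176 to 7192), against 998 and 1049 in the 64 and 143 cells of the other NEJ687 clusters. Gstm1 stood at 3268 CPM and Gsta3 at 993 in them, while Afp was 207 CPM against 560 and 1667. They also differed from the Alb-poor cells of the healthy libraries. Akr1c6, which led that cluster, stood at 82.7 CPM in them, against 2559 in NEJ654 and 2795 in NEJ677. Fabp1 stood at 2937 CPM against 21216 and 43626, and Igf2 at 331 CPM against 2.02 and 0, in the same order. The source of these cells was not tested.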
